A study of Mus musculus with 8 samples.

Results

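Cytosolic ribosomal protein genes encode the protein parts of the small and the large subunit of the ribosome. Members were taken from the RefSeq annotation of the mouse genome by symbol: protein-coding genes on chromosomes 1 to 19 named Rpl or Rps with a number and an optional final letter a or x, together with Rplp0, Rplp1, Rplp2 and Rpsa. This rule gave 72 genes of 20665 protein-coding genes on these chromosomes, 29 of the small subunit and 43 of the large subunit. Of the 76751 regions formed by merging the peaks of 8 libraries, 87 had their summit within 1 kb of a member's span, and these 87 regions lay at 66 of the 72 genes. The rule uses no measured value.

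The assay was ATAC-seq, in which a transposase cuts accessible chromatin and tags it for sequencing, applied to macrophages differentiated from mouse bone marrow. The 4 groups were wild type untreated cells, wild type cells given lipopolysaccharide (LPS, a bacterial cell wall component) for 6 h, Lamin-A KO untreated cells and Lamin-A KO cells given LPS for 6 h, with 2 libraries in each. Lamin-A is a structural protein of the nuclear lamina, and the series asks how LPS acts on accessibility and what part Lamin-A has in it. Culture lasted 7 days in dishes of 60 mm, the cells were cryopreserved with 5% DMSO before use, and every library had 10 PCR cycles. The dose of LPS, the way Lamin-A was removed, the ages of the animals and whether the libraries of a group came from separate animals are not given in the labels, so the p-values below measure the spread between these libraries, which may be technical. For the LPS libraries the source name also says untreated, so titles and treatment fields set the groups.

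Each library was deposited as 1 peak list of 44504 to 59750 peaks, with fewer peaks in the 4 KO lists (44504 to 49661) than in the 4 wild type lists (53942 to 59750). The number of peaks gives the length of a list and not its sequencing depth, and read totals were not used here. All 12 macrophage markers, among them Csf1r and Adgre1, had a region in all 8 libraries. Of the marker lists of other cells, 1 of 6 B cell genes, 2 of 6 T and NK cell genes, 3 of 7 neutrophil genes, 2 of 7 erythroid and megakaryocyte genes and 5 of 6 stromal and endothelial genes had a region in all 8 libraries, while Cd3e, Ly6g and Gata1 had none in any library. Lmna itself, the gene of Lamin-A, held 5 to 6 regions in the wild type lists and 5 to 6 in the KO lists, and a peak call does not check the loss of the protein.

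Ribosomal protein genes are among the most strongly transcribed genes of growing cells, and their promoters are typically short, rich in GC and often without a TATA box. Their transcripts usually begin with a C followed by an unbroken run of pyrimidines, the terminal oligopyrimidine tract, through which the mTOR pathway and Larp1 control their translation. Macrophages given LPS activate NF-kB and interferon programmes and change their protein output.

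Promoter sequences from RefSeq (build GRCm38.p6) were found for 52 of the 72 members. Not every member whose start region passed a test below is shown, and Rps12, Rpl22, Rps3 and Rps28 are left out. Sequences are shown for the 3 members with the strongest regions (Rpl27, Rpl31 and Rps6) and for the weakest start region (Rpl19). They are also shown for 5 members whose start regions passed a test (Rps18, Rpl14, Rpl38, Rpl24 and Rpl18). Each is written 5′ to 3′ on the gene's strand, 100 bases before the listed start and the first 30 bases from it, with the longest run of C and T within 25 bases of the start in capitals.
Rpl27: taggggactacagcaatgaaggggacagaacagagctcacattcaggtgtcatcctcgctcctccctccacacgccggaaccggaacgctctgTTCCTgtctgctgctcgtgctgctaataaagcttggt
Rpl31: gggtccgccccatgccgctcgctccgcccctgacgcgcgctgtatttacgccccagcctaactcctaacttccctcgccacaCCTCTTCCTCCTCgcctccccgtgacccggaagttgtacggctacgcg
Rps6: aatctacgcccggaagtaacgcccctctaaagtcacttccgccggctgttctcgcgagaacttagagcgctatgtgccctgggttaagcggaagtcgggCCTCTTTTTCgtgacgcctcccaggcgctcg
Rpl19: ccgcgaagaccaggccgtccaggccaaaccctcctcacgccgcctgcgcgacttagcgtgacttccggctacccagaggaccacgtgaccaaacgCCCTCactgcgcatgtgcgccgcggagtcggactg
Rps18: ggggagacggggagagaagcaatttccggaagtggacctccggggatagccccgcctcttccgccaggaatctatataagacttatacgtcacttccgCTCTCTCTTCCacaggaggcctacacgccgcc
Rpl14: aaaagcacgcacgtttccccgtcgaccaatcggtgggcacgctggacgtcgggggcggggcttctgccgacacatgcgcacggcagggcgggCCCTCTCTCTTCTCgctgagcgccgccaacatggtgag
Rpl38: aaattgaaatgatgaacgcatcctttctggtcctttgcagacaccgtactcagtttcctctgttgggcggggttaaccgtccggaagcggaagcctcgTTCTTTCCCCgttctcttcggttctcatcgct
Rpl24: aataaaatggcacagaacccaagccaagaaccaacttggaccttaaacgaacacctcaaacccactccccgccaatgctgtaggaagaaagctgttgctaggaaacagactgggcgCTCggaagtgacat
Rpl18: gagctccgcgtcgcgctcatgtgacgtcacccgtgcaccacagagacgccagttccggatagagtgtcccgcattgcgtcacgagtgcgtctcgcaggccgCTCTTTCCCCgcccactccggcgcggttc
The windows were Rpl27 at chr11:101442145-101442274 (plus strand), Rpl31 at chr1:39367751-39367880 (plus strand), Rps6 at chr4:86857338-86857467 (minus strand), Rpl19 at chr11:98026610-98026739 (plus strand), Rps18 at chr17:33955636-33955765 (minus strand), Rpl14 at chr9:120571417-120571546 (plus strand), Rpl38 at chr11:114668480-114668609 (plus strand), Rpl24 at chr16:55966175-55966304 (plus strand) and Rpl18 at chr7:45717971-45718100 (plus strand). In Rps6 the run CCTCTTTTTC covers the listed start, and in Rps18 the run CTCTCTCTTCC does so. The longest run of Rpl24 had 3 bases and that of Rpl27 and Rpl19 had 5. Across all 52 members the longest run was 21 bases, in Rpl7a, which encodes a large subunit protein.

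A run of at least 5 pyrimidines over the listed start base was present in 17 of 52 members (32.7%), against 8.74% of the 16457 protein-coding genes with a listed start. A run of at least 8 within 25 bases of the start was present in 26 of 52 (50%), against 19.2% of all. Motifs were searched on both strands of the 300 bases from 250 before to 50 after the start. The ETS core CCGGAA was present in 26 members (50%, against 19.8% of all promoters), the Sp1 letters GGGCGG in 30 (57.7%, against 48.0%) and the YY1 letters AAGATGGC in 4 (7.69%, against 3.29%). TATAAA was in 3 of 52 members (5.77%) and in 13.4% of all, a difference that was not tested. These are letter matches in a window. The median percentile of the start region was 82.5 in the 15 members with a run over the start base and a start region, and 88.8 in the 34 without.

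Nearly all ribosomal protein genes had a called region in every library and group. Within each list the peaks were ranked by the authors' fold enrichment over local background, and the percentile is the share of a list's peaks that rank at or below a peak. Of the 87 member regions, 75 were called in all 8 libraries (86.2%), against 40.3% of all regions, and these 75 lay at 65 members. Each library held between 77 and 81 of the 87 regions. The 12 regions called in fewer libraries were weak, with mean percentiles from 1.27 to 39.1, and 7 of them were called in 1 library only. Of the 87 regions, 54 had their summit within 1000 bp of a listed start, 19 within that distance of an end of a gene whose strand was not given, 8 lay farther inside the gene and 6 farther outside it.

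At the 52 members with a listed start, 49 had a region there (94.2%), and all 49 were called in all 8 libraries. Of all 16457 genes with a listed start, 56.7% had a region at the start and 47.3% had one called in all 8. The start regions of members ranked high, with a median percentile of 88.4 against 73.3 for all start regions. Of the 49, 19 stood above the 90th percentile (38.8%, against 22.9% of all), and 2 stood below the 50th (4.08%, against 28.6%). Their width was close to that of other starts, with a median of 571 bp against 565 bp. Summits lay just upstream of the listed start, at a median of -43 bp against -48 bp, and 39 of 49 were within 100 bp of it (79.6%, against 56.6%).

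**Figure D1:**
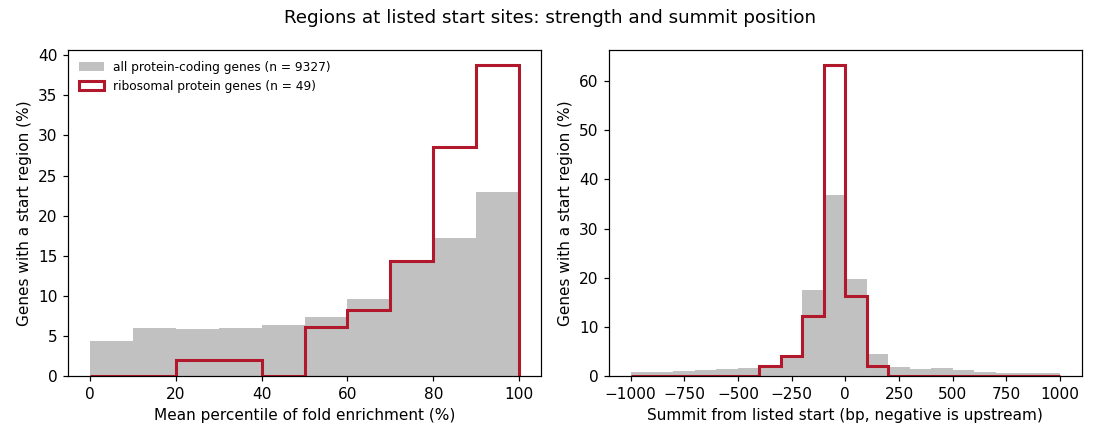
Left, mean percentile of fold enrichment of the start region; right, distance of its summit from the listed start in bp. Red outlines show 49 ribosomal protein genes and grey all 9327 protein-coding genes with a start region, as percent of genes; members gather above the 80th percentile and within 100 bp of the start.

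The median percentile of the strongest region was 87.1 over 25 small subunit genes and 88.4 over 41 large subunit genes. Of the 66 strongest regions, 23 stood above the 90th percentile, 41 between the 50th and the 90th, and 2 below the 50th. The percentile of a strongest region varied little between libraries, with a median SD of 3.33 over the 65 called in all 8.

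The strongest member region was at Rpl27, a large subunit gene on chromosome 11, with percentiles of 99.5 and 99.9 in wild type untreated, 99.7 and 99.6 in wild type LPS, 99.9 and 99.9 in KO untreated and 99.9 and 100 in KO LPS cells. Rpl31, another large subunit gene, followed at a mean of 99.4 ± 0.31 (SD, n = 8 libraries), and Rps6, the small subunit protein phosphorylated downstream of mTOR, at 98.2 ± 1.19. Rps26 had 98.1 ± 0.87 and Rpl37 97.5 ± 1.21. These 5 stayed above the 95th percentile in every library, and neighbours from Rps6 to Rpl37 differed by less than their spread.

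The weakest kept regions were those of Rpl3, a large subunit protein near the peptidyl transferase centre. One peak number was missing from all 8 lists in the 12.2 kb around it, and where in that interval the missing peak lay is unknown. Neither of its kept regions had a mean above the 3rd percentile. One at chr15:80076824-80077120 was called in 7 libraries at a mean percentile of 1.79, and one at chr15:80080712-80080914 in wild type LPS replicate 2 only at 2.83. Rpl19, also of the large subunit, had percentiles of 43.5 and 27.8 in wild type untreated, 27.4 and 38.2 in wild type LPS, 28.4 and 10.01 in KO untreated and 19.99 and 14.6 in KO LPS cells. Of the KO libraries 3 were below all wild type libraries, and KO untreated replicate 1 was within their range. The KO difference of Rpl19 did not pass in the rank fit below (limma adjusted p = 0.33). Rpl8 had 50.4 ± 11.95, the widest spread of the 65, with 25.04 in KO LPS replicate 2 and 62.6 in KO LPS replicate 1. Rps27a, a fusion of ubiquitin and a small subunit protein, had 57.7 ± 5.70, and Rpl12, which also has 1 or 2 missing numbers in all 8 lists, 57.8 ± 8.09. Rpl8, Rps27a and Rpl12 did not differ from each other beyond their spread.

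The stalk proteins, which recruit the translational GTPases, differed among themselves. Rplp0 had 95.8 ± 1.62 with a broad region of 978 bp on average, Rplp1 had 94.8 ± 1.42, and Rplp2 had 73.4 ± 4.26. Rplp2 was at 67.0 and 67.2 in wild type untreated, 76.0 and 75.3 in wild type LPS, 74.6 and 72.1 in KO untreated and 77.8 and 77.3 in KO LPS libraries, so both wild type untreated libraries were the lowest. In the rank fit below neither LPS nor KO passed for Rplp2 (limma adjusted p = 0.17 for each). Rpsa, the small subunit protein also described as a laminin receptor, had 93.2 ± 1.91.

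**Figure D2:**
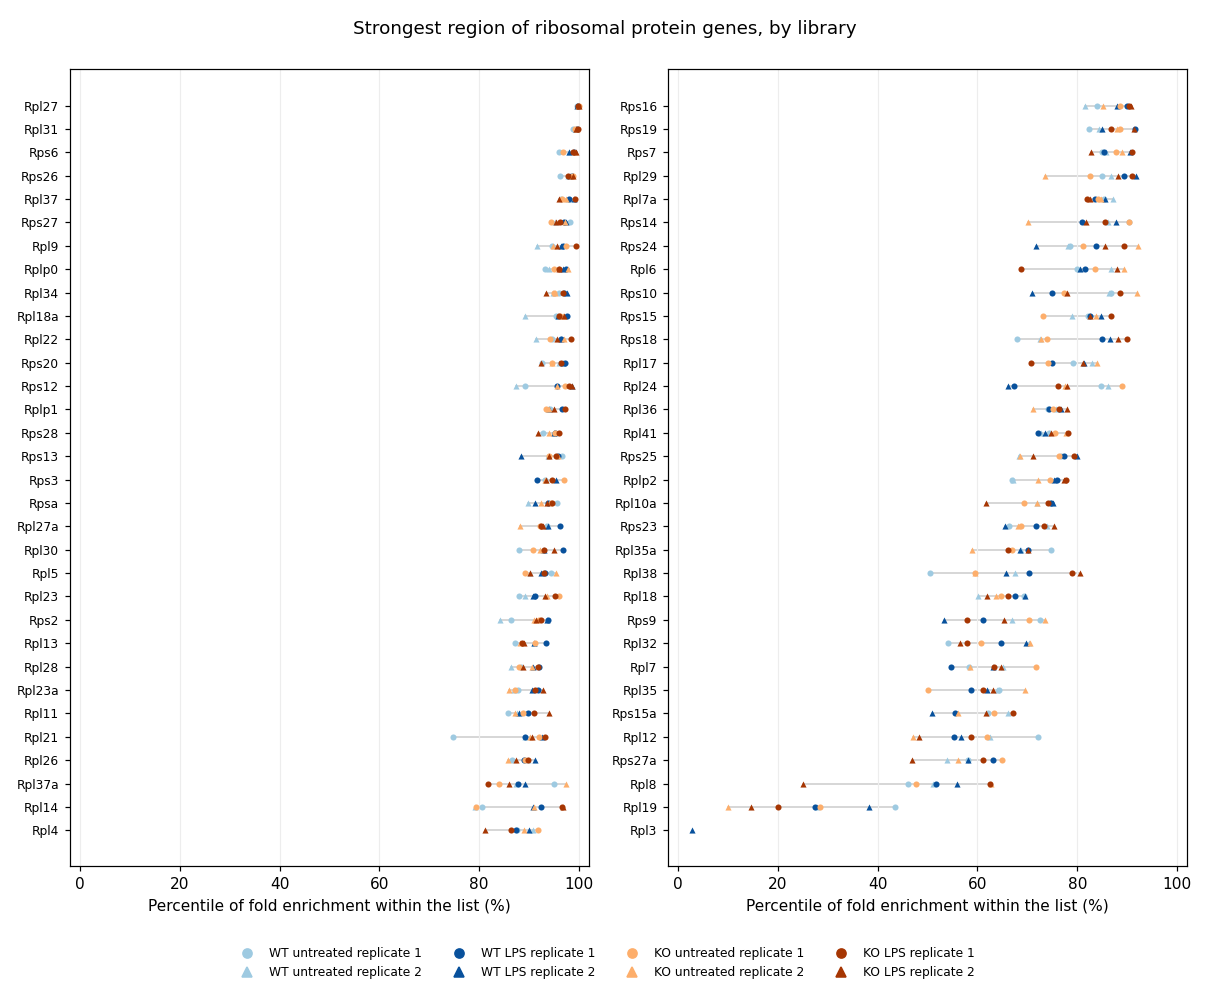
Percentile of fold enrichment within each list for the strongest region of 64 members, ordered by mean, with 1 point per library coloured by group and shaped by replicate. Most members stay above the 50th percentile in every library, and Rpl19 and Rpl3 lie at the foot of the order.

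Some member regions lay close to a neighbouring gene. The summit of the strongest region lay within 250 bp of an end of another protein-coding gene at 12 of the 66 members, and the nearest were Ndufa7 at 4 bp from the Rps28 summit, Vps52 at 14 bp from that of Rps18, Lrsam1 at 15 bp from that of Rpl12, Snapc5 at 21 bp from that of Rpl4 and Rab13 at 22 bp from that of Rps27. Rpl4 excepted, the accessibility of the 2 genes cannot be told apart at such regions. The median percentile was 82.0 for these 12 and 87.8 for the other 54. The strongest region of Rpl4 lies outside the gene, 5931 bp from the listed start. Its separate start region, called in all 8 libraries, had a mean percentile of 59.3. The strongest regions of Rpl18 and Rps9 also have their summit outside the gene, but on opposite sides. That of Rpl18 lies 100 bp upstream of the gene's span, and the listed start lies farther inside the span. That of Rps9 lies 303 bp downstream of the span. The regions at the listed starts of Rpl18 and Rps9 had 36.0 and 55.7. Which region serves as the promoter of Rpl18 was not tested. No region was assigned to more than 1 member. Rpl18 and Rpl19 had the most regions, 3 each, 17 members had 2 and 47 had 1.

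No region was called in any library at 6 members, among them Rpl13a, Rpl15, Rps21 and Rps29. MACS2 numbers its peaks in order, and 544 to 587 numbers were missing from each deposited list. The lists are named as filtered, and the filter is not stated. At each of these 6 genes, 1 or 2 numbers were missing between the flanking kept peaks in all 8 lists. The same was true of 6.57% of the 6208 protein-coding genes without a region and of 3.84% of the 14231 protein-coding genes with one. Among the 66 members with a region it was true of 5 (Rpl12, Rpl3, Rpl41, Rpl7a and Rps9). The interval common to all 8 lists was 21.7 kb around Rps21, 32.1 kb around Rpl13a, 40.8 kb around Rps29 and 79.0 kb around Rpl15. Where in the interval a missing peak lay is unknown, so the absence of a region at these 6 genes does not show that they were closed, and the strength of the 5 members named above is that of their kept peaks only.

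Gains and losses of calls asked whether LPS or the loss of Lamin-A opened or closed these genes. Gained means called in both libraries of 1 group and in none of the group it is compared with, and lost means the opposite. With this size, 2 libraries against 2 cannot give an exact two-sided p below 0.333, so no p is given. A region called in all 8 libraries, or in 1 only, can be neither gained nor lost under this rule. Of the 87 member regions 75 were called in all 8 and 7 in 1, while 40.3% of all regions were called in all 8. Low member counts below thus largely restate that most member regions were called everywhere. After LPS no member region was gained in wild type cells (0 of 87, against 10.1% of all regions) and none was lost (against 6.02%). In KO cells none was gained with LPS (against 8.03%) and 1 was lost (against 5.56%). Between genotypes, none was gained in untreated KO cells (against 0.735%) or lost (against 6.22%), and after LPS none was gained (against 0.711%) or lost (against 6.94%). The comparisons share libraries. When 1 library was left out, so that a group had a single list, each of these counts was from 0 to 3.

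The region lost with LPS in KO cells was downstream of Rpl23, at chr11:97777043-97777385, with its summit outside the gene. It was called in both wild type untreated libraries, in wild type LPS replicate 1 and in both KO untreated libraries, at a mean percentile of 17.4, and in neither KO LPS library. The start region of Rpl23 itself was called in all 8 libraries at 92.2 ± 2.83.

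The strength of member regions was compared by ranking the 30960 regions called in all 8 libraries within each library, converting ranks to normal scores (the values of a standard normal distribution at those ranks) and fitting limma with Benjamini-Hochberg adjustment over all 30960. With LPS, averaged over genotypes, 4 of the 75 member regions rose (15.0% of all regions did) and 2 fell (15.8%). Only regions called in all 8 libraries could enter. At an unadjusted p under 0.05 there were 11 member regions (14.7%, against 41.2% of all). The median difference was 0.06 over the members and -0.02 over all regions.

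The start region of Rps18, a small subunit gene, rose most surely. Its percentile among the shared regions was 47.2 and 53.4 in wild type untreated, 72.8 and 77.3 in wild type LPS, 62.9 and 59.1 in KO untreated and 84.3 and 83.1 in KO LPS libraries. The LPS libraries were above the untreated libraries in both genotypes and did not overlap them. The difference was 0.69 ± 0.13 normal scores (SE; limma adjusted p = 0.0021), and the summit lies 14 bp from Vps52, a gene of retrograde vesicle transport. Rpl14, a large subunit gene, was at 67.1 and 64.2, then 86.1 and 84.1, in wild type cells without and with LPS, and at 70.6 and 86.4, then 94.6 and 95.5, in KO cells. Both genotypes were higher with LPS without overlap, by 0.73 ± 0.15 (limma adjusted p = 0.0034).

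Rps12 and Rpl38 also rose. Rps12, of the small subunit, was at 81.3 and 77.8 in wild type untreated, 91.8 and 97.6 in wild type LPS, 95.9 and 93.2 in KO untreated and 96.9 and 97.9 in KO LPS libraries, with a difference of 0.60 ± 0.16 (limma adjusted p = 0.014). Rpl38, a large subunit protein known for its part in translating Hox transcripts, was at 25.8 and 45.8, 49.4 and 45.8, 44.0 and 41.2, and 68.0 and 72.8 in the same order, with a difference of 0.52 ± 0.15 (limma adjusted p = 0.022). In wild type cells the Rpl38 groups met at 45.8, while in KO cells the LPS libraries were higher. The rise of Rpl14, Rps12 and Rpl38 did not pass with ranks of the -log10 p or with the log2 fold enrichment in place of ranks.

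A region inside the span of Rpl18, a large subunit gene, fell with LPS, and its summit lies upstream of the listed start. At chr7:45716084-45716493 it was at 10.2 and 12.5 in wild type untreated, 4.26 and 6.25 in wild type LPS, 7.77 and 15.4 in KO untreated and 2.39 and 2.66 in KO LPS libraries, a difference of -0.58 ± 0.14 (limma adjusted p = 0.0096). The LPS libraries were lower in both genotypes. The start region of Rpl24, of the large subunit, was at 74.0 and 75.9, 45.3 and 46.2, 84.2 and 65.9, and 64.0 and 69.4 in the same order, a difference of -0.53 ± 0.15 (limma adjusted p = 0.023). The wild type groups did not overlap and the KO groups did, and the interaction for this region did not pass (limma adjusted p = 0.80). The fall at Rpl24 did not pass with ranks of the -log10 p or without any 1 of 6 libraries, which were both wild type untreated, both wild type LPS, KO untreated replicate 1 and KO LPS replicate 1. The rise at Rpl38 did not pass without wild type untreated replicate 1, wild type LPS replicate 1, KO untreated replicate 2 or KO LPS replicate 2, and the rise at Rps12 without wild type untreated replicate 2 or wild type LPS replicate 2.

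**Figure D3:**
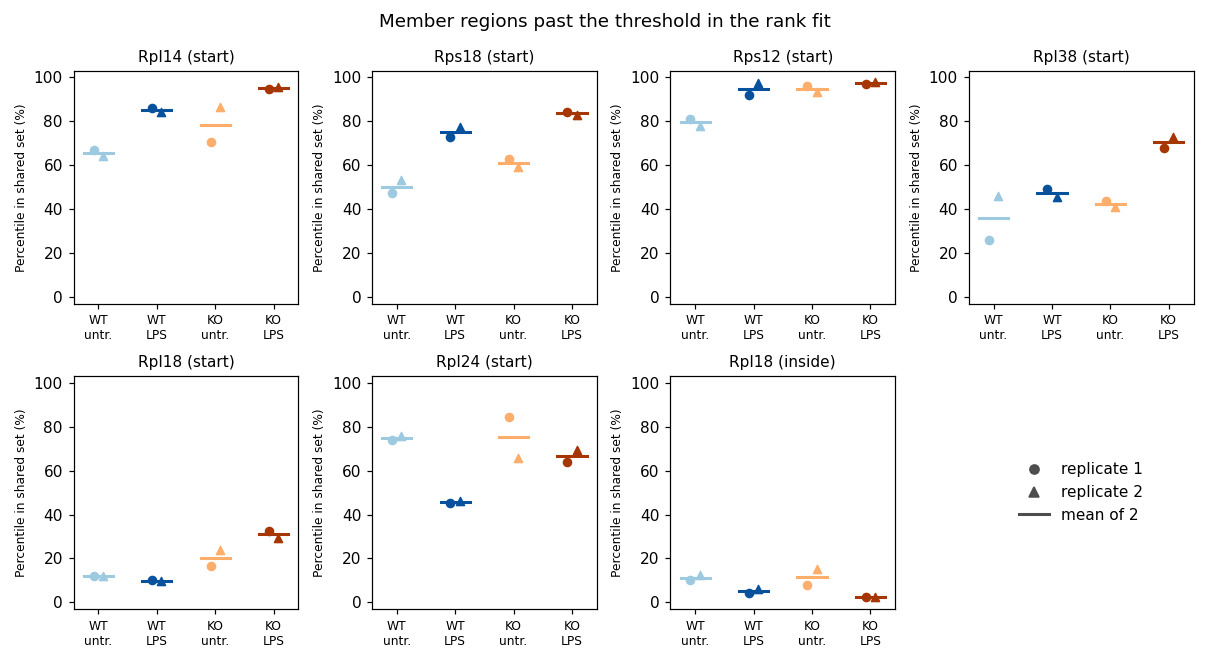
Percentile among the 30960 shared regions of the 7 member regions past the threshold for LPS or KO, with 1 point per library and the mean of 2 as a line, by group. Rps18 and Rpl14 are higher with LPS in both genotypes, the region inside Rpl18 is lower, and the Rpl18 start region is higher in the KO groups.

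With Lamin-A KO, averaged over treatments, 1 member region rose in rank (2.33% of all regions did) and none fell (2.51%). It was the start region of Rpl18, at chr7:45717732-45718277, with percentiles of 12.1 and 12.1 in wild type untreated, 9.99 and 9.62 in wild type LPS, 16.7 and 23.9 in KO untreated and 32.5 and 29.3 in KO LPS libraries. All 4 KO libraries were above all 4 wild type libraries, by 0.56 ± 0.13 (limma adjusted p = 0.037), and the summit lies 26 bp from Sphk2, a sphingosine kinase. The call ended when any 1 library other than KO untreated replicate 1 was left out, and with ranks of the -log10 p, with the log2 fold enrichment, with peaks of -log10 p of at least 20 and with a replicate block. At an unadjusted p under 0.05 there were 12 of 75 member regions, against 24.4% of all.

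In rank the KO difference was above 0 at 60 of 75 member regions (80%, against 51.8% of all), with a median of 0.15 against 0.01. On the log2 fold enrichment scale the median KO difference was -0.01 over the members and -0.09 over all regions, so the members were higher only relative to the other regions. No test is given for this, and the KO lists were shorter than all wild type lists. Most member regions lie at gene starts, and whether start regions of other genes shift alike was not tested. Per library, the median fold enrichment of all start regions was 10.8 to 12.1 in wild type and 10.0 to 12.2 in KO lists. For the shared regions it was 9.32 to 10.6 in wild type and 8.24 to 10.02 in KO lists. The interaction of LPS and genotype passed at no member region and at 0 of all regions (0%) in limma, and at an unadjusted p under 0.05 at 0 of 75 against 7.29% of all.

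**Figure D4:**
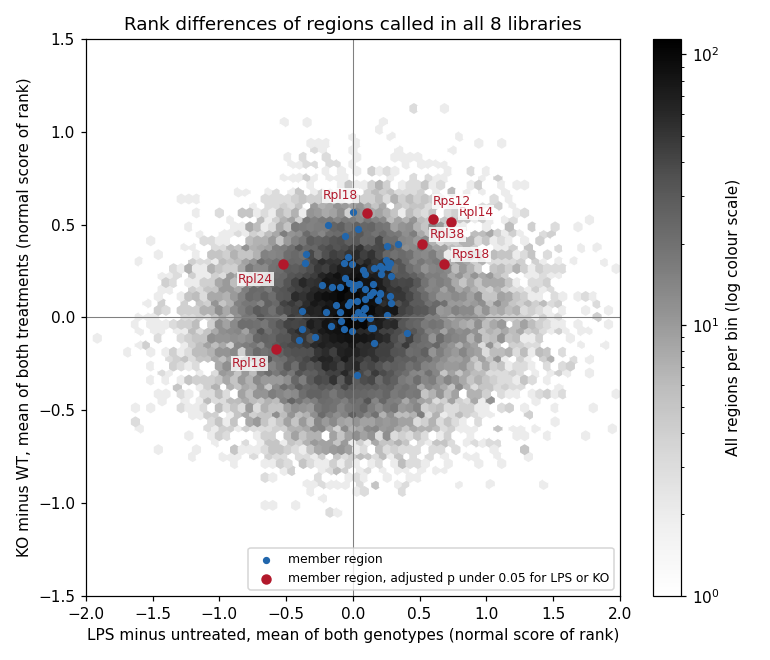
Difference with LPS (x axis) and with KO (y axis) in normal scores of rank for the 30960 shared regions (grey bins, log colour scale) and the 75 member regions (points; red for an adjusted p under 0.05 in either contrast). Most member points lie above 0 on the y axis and near 0 on the x axis.

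Peak width was compared in the same way as the log2 of the summed peak width. With LPS 1 member region was wider (6.78% of all) and 5 were narrower (10.4%). The narrowing was largest downstream of Rps18, at chr17:33951058-33951748, with widths of 542 and 660 bp in wild type untreated, 358 and 358 bp in wild type LPS, 546 and 657 bp in KO untreated and 307 and 284 bp in KO LPS libraries. The LPS libraries were narrower in both genotypes without overlap, by -0.88 ± 0.09 log2 units (limma adjusted p = 0.0033), and this summit lies 31 bp from B3galt4, a glycosyltransferase gene. Among the other 4 were a region inside Rpl22 (-0.35, limma adjusted p = 0.014), the Rpl22 start (-0.27, 0.045) and the region inside Rpl18 (-0.21, 0.044). In wild type cells the Rpl22 start had 810 and 856 bp untreated and 616 and 551 bp with LPS. In KO cells it had 610 and 524 bp, then 566 and 542 bp, so the KO groups overlapped. Its width interaction did not pass (limma adjusted p = 0.49). Rpl24, which fell in rank, was wider, by 0.56 ± 0.14 (limma adjusted p = 0.046), and this did not pass with the widest peak in place of the sum. With widths centred on each library's median the narrowing of the Rpl22 start and of the region inside Rpl18 did not pass, and each of these calls, like the widening of Rpl24, ended under 7 of the 8 left-out libraries. The library whose removal kept the call was KO untreated replicate 2 for the Rpl22 start, KO LPS replicate 1 for the region inside Rpl18 and wild type untreated replicate 2 for Rpl24. The region inside Rpl22 did not pass without wild type untreated replicate 2 or wild type LPS replicate 2. At an unadjusted p under 0.05 there were 12 of 75 member regions, against 33.2% of all.

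With KO, 9 member regions were narrower (8.77% of all were) and none was wider (0.233%). Among them were Rps3 and Rps28 of the small subunit and Rpl18, Rpl19, Rpl22 (2 regions) and Rpl29 of the large subunit. Rps3, a small subunit protein also linked to DNA repair, had widths of 705 and 810 bp in wild type untreated, 692 and 768 bp in wild type LPS, 611 and 520 bp in KO untreated and 565 and 533 bp in KO LPS libraries. All 4 KO libraries were narrower than all 4 wild type libraries, by -0.42 ± 0.08 log2 units (limma adjusted p = 0.035). The difference was above 0 at 1 of 75 member regions (1.33%, against 10.4% of all regions), with a median of -0.16 against -0.13, so nearly all regions of either kind were narrower in value. At an unadjusted p under 0.05 there were 37 of 75 member regions (49.3%, against 35.7% of all). With widths centred on each library's median none of the 9 remained past the threshold, and none did when any 1 wild type library was left out. Leaving out replicate 2 of either KO group left 1 member region narrower. The width interaction passed at 0 member regions and 0% of all regions in limma, and at an unadjusted p under 0.05 at 4 of 75 (5.33%, against 6.86%).

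**Figure D5:**
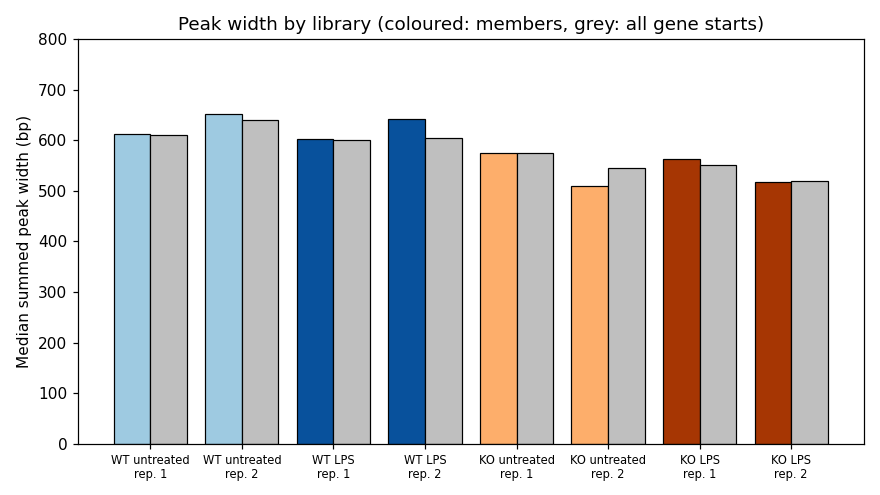
Median summed peak width in bp per library, for the strongest regions of members (coloured by group) and for the start regions of all protein-coding genes (grey). Members range from 509 to 575 bp in the KO libraries and from 602 to 651 bp in the wild type libraries, and the grey bars fall alongside.

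Genes with related roles, from lists chosen by function, were counted in the same way. Of 78 mitochondrial ribosomal protein genes, 73 had a region in all 8 libraries, with a median strongest percentile of 81.4. With LPS in wild type cells 5 of the 78 gained a region (6.41%, against 13.7% of all protein-coding genes) and 4 lost one (5.13%, against 10.4%), and in KO cells 5 gained (6.41%, against 11.5%) and 6 lost (7.69%, against 9.83%). Of 27 ribosome assembly and RNA polymerase I genes, 26 had a region in all 8, with a median of 88.3. Regions were gained with LPS at Ncl, Sbds and Ubtf in wild type cells (11.1% of the 27, against 13.7% of all protein-coding genes). In KO cells they were gained at Bop1, Polr1d, Rrn3 and Taf1b (14.8%, against 11.5%), and Wdr12 lost 1 (3.70%, against 9.83%). Of 20 other genes whose transcripts begin with a pyrimidine tract, 19 had a region in all 8, with a median of 85.0. With LPS Eif3h gained 2 regions in wild type and 1 in KO cells, and Npm1 lost 1 in wild type cells. Gains were thus at 5% of these genes in wild type cells (against 13.7%) and 5% in KO cells (against 11.5%). Losses in wild type cells were at 5% (against 10.4%). All 12 genes that control translation of these transcripts, such as Mtor and Larp1, had a region in all 8, with a median of 82.2. With LPS in wild type cells 5 regions were gained at Eif4ebp1, Eif4ebp2 and Rptor and 5 lost at Rheb, Rptor and Tsc1, and in KO cells 5 were gained at Eif4ebp1 and Rptor and 4 lost at Rheb and Rptor, so that Rptor had both. Gains were at 25% of these genes in wild type (against 13.7%) and 16.7% in KO cells (against 11.5%). Losses were at 25% (against 10.4%) and 16.7% (against 9.83%). The 12 genes held 78 regions, and a gene with more regions has more that can be called. The differences between genotypes in these lists were not tested. Over all 20665 genes, 56.8% had a region in all 8 libraries, with a median of 74.8.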

How the data were processed

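BWA 0.7.12, MACS2 and build mm10 are listed in the submitters' processing notes, and the authors deposited 1 peak list per library. The deposited fold enrichment of each peak is a ratio over local background, and the deposited -log10 p came from the same caller. The filter and the handling of reads that map to several places, such as those from ribosomal protein pseudogenes, are not given in the sources used here. Coordinates are 1-based mm10, and gene spans and promoters came from RefSeq GRCm38.p6.

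Peaks of the 8 lists that overlapped were merged into regions, whose summit is that of the peak with the highest fold enrichment. Ranks and log2 widths of the 30960 regions in all 8 libraries were fitted with limma 3.58.1 (R 4.3.3) over the 4 groups, with contrasts for LPS, KO and their interaction, Benjamini-Hochberg adjustment and a threshold of 0.05; tables and figures used Python 3.11.15. The fits were tested on simulated data. Named were members with no region, with a gained or lost region, past a threshold (up to 10 per contrast), the 5 strongest and 5 weakest, those with the most regions, the stalk genes and Rpsa. Members and lists were chosen with earlier results of these data known. Alternatives were stricter or equal-length lists, other overlap and distance rules, other scales, a replicate block and leaving out each library. Results for a few members and markers are not reported here.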

Additional observations from a re-analysis of the deposited data

Results flagged for a closer look

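The start regions of Rpl18 and Rps15a moved in opposite directions with LPS in the 2 genotypes, with both libraries of each group apart. Rpl18, at chr7:45717732-45718277, was lower with LPS in wild type cells (12.1 and 12.1, then 9.99 and 9.62, as percentiles among shared regions) and higher in KO cells (16.7 and 23.9, then 32.5 and 29.3), an interaction of 0.46 normal scores (limma adjusted p = 0.77). Rps15a, at chr7:118115750-118116493, was lower in wild type cells (39.4 and 43.7, then 30.6 and 28.5) and higher in KO cells (48.8 and 37.2, then 51.9 and 49.2), an interaction of 0.52 (limma adjusted p = 0.74). Neither interaction passed. Such a pattern was seen at 2 of 75 member regions (2.67%) and at 3.14% of all shared regions.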

How the results depend on the processing

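Of the 22 fitted values of named regions, all 22 kept their direction under every alternative run, and 3 also kept their call: the Rps18 start in rank, the region inside Rpl18 in rank and the region downstream of Rps18 in width, all with LPS. The number of peaks per list and 2 libraries per group limit what calls can show.

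With peaks of -log10 p of at least 20, 0 member regions were lost with LPS in KO cells, 1 was lost in untreated KO against wild type cells, the median percentile was 85.0 (87.9 in the main setting), 0 rose in rank with KO and 2 were wider with LPS. With equal numbers of peaks, 2 were gained in untreated KO and 1 in LPS-treated KO against wild type cells, the median was 85.9 and 2 rose in rank with KO. With 50% of the region covered, 2 were lost with LPS in KO cells, 1 in untreated KO and 2 in LPS-treated KO against wild type cells. With summits inside the span, there were 32 regions at 25 members, 25 of them in all libraries, with 0 lost with LPS in KO cells and a median of 82.9. Within 5 kb there were 136 regions, with 7 lost with LPS in wild type and 5 in KO cells, and 4 lost in untreated KO and 2 in LPS-treated KO against wild type cells.

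With log2 fold enrichment, whose median over all regions shifted by -0.14 with LPS, 1 rose (8.46% of all regions) and 7 fell (27.7%) with LPS and 0 rose with KO (0.830%); with ranks of -log10 p, 1 rose (17.7%), 4 fell (18.4%) and 0 rose with KO (2.28%). With centred widths 4 were wider and 2 narrower with LPS and 0 narrower with KO, and with the widest peak 0 were wider with LPS. Same-numbered libraries did not deviate together (correlations from -0.08 to 0.03). These correlations cannot tell whether same-numbered libraries came from the same animals or preparation. With a replicate block 4 rose and 2 fell with LPS, 0 rose with KO, 0 were wider and 2 narrower with LPS, and 3 were narrower with KO.

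Leaving out each library gave 85 to 87 regions, 75 to 76 in every library, a median of 87.6 to 88.3, gains of 0 to 3 (LPS in wild type), 0 to 2 (LPS in KO) and 0 to 1 (KO against wild type after LPS), and losses of 0 to 3, 1 to 2 and 0 to 3 in the same order, with 0 to 2 lost in untreated KO against wild type. In rank, 3 to 5 rose and 1 to 4 fell with LPS and 0 to 3 rose with KO; in width, 0 to 1 were wider and 1 to 4 narrower with LPS and 0 to 11 narrower with KO.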

Other observations

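Most ribosomal protein genes that the naming rule leaves out had a region too. The median for the strongest region over all protein-coding genes was 74.8. The distance of these regions to neighbouring genes was not checked. Of the 8 paralogs with a listed start, 4 had a region there, so not every paralog region below lies at a start. Rps3a1, a small subunit gene on chromosome 3, had a region at a mean percentile of 96.5 ± 1.27 (SD, n = 8 libraries). On the X chromosome Rpl36a had 82.3 ± 2.54, Rpl39 79.7 ± 7.91, Rps4x 78.5 ± 3.43 and Rpl10 71.9 ± 11.03. Of the paralogs, Rpl22l1 had 96.0 ± 1.76, Rpl3l 90.9 ± 2.58, Rps27l 90.04 ± 3.96, Rpl36al 88.4 ± 2.61 and Rpl7l1 78.3 ± 3.75, all called in all 8 libraries, while Rpl10l, Rpl39l and Rps27rt had no region in any library.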
